A study of Mus musculus with 6 samples.

Results

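Clones A1 and A4 are separately derived lines of mouse embryonic stem (ES) cells with the same transgene. Both come from the line EBRTcH3 and carry the coding part of human WBSCR1, tagged with 3xFLAG, at the ROSA26 locus under a promoter that tetracycline keeps off. WBSCR1 is the human counterpart of Eif4h, which helps the helicase Eif4a1 to unwind messenger RNA for translation. Each clone gave 1 control array, from cells kept in tetracycline (0 h without it), and 1 induced array, from cells 24 h without tetracycline, so 4 of the 6 arrays of the series were compared. The remaining 2 arrays, of a clone called A3, served only to estimate the spread. The members are the 17404 autosomal genes among 18193 genes that the array names, and genes of the X and Y chromosomes were left out. Values are log2 signals, and a difference is the mean of the A1 arrays minus the mean of the A4 arrays with condition as a covariate, so a positive difference is a higher signal in A1. Each line is a single clone, and clone and culture cannot be told apart.

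ES cells are held in a self-renewing state by Pou5f1, Sox2 and Nanog in the presence of the cytokine LIF. A few cells in such cultures can take on primitive endoderm features, driven by Gata6, Gata4, Sox17 and Sox7. The primitive endoderm forms visceral endoderm, which takes up nutrients through the receptors Cubn, Amn and Lrp2 with the adaptor Dab2, and parietal endoderm, which secretes basement membrane. When oxygen is present, the prolyl hydroxylases Egln1 and Egln3 mark the transcription factor Hif1a for destruction, and low oxygen stabilises it. Hif1a raises glucose transporters, glycolytic enzymes, Bnip3 and, as feedback, Egln1 and Egln3 themselves. The letters ACGTG are a form of the core of the element that the factor binds.

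All 4 arrays carried ES cell markers at a high level. Pou5f1, Nanog, Sox2, Zfp42, Esrrb and Dppa5a lay between 10.95 and 14.06 log2 in every array. Markers of trophectoderm lay at 3.50 to 6.66, of fibroblasts and feeders at 4.12 to 7.37, of blood at 2.55 to 6.15 and of neural cells at 5.13 to 8.27 log2. By correlation the A1 control array was most like the A4 induced array (r = 0.9970 across 33588 probe sets, which are not independent replicates). It was less like its own induced partner (r = 0.9957), and the A4 arrays correlated at r = 0.9963 with each other. The count of genes differing by at least 1 log2 gave another order for the A1 control array. It was 19 against A4 induced, 12 against A1 induced and 10 against A4 control. The 18S ribosomal control probe sets averaged 5.66 log2 in the A1 control array, 7.03 in the A1 induced array and 5.99 in both A4 arrays. In clone A3, which entered only the spread, they averaged 6.61 in the control and 7.27 in the induced array. List medians were therefore also taken from the cross pairs, A1 control with A4 induced and A1 induced with A4 control. The first leaves out the array with the highest 18S signal of the 4 compared. In each of these pairs clone and condition cannot be told apart.

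One gene, Gm6958, passed the test between the clones, at 2 of 33588 autosomal probe sets (0.00595%). Gm6958 is a predicted protein-coding gene of chromosome 16. Its brighter probe set read 6.23 log2 in the control array and 6.30 in the induced array of A1, against 8.89 and 9.07 in A4. The A1 arrays were both far below the A4 arrays, whatever the condition. The difference was -2.71 ± 0.16 log2 (SE; 95% interval -3.08 to -2.35), a signal 6.56-fold higher in A4, with an adjusted p of 0.00206 in limma. Whether either of its probe sets also matches other transcripts was not tested, and the second is of a design that may. The second read 6.24 and 6.36 in A1 against 7.97 and 8.49 in A4 (difference -1.93, adjusted p = 0.00645). Without the A1 control array the difference was -2.63 with an adjusted p of 0.152, and without the A1 induced array it was -2.80 with an adjusted p of 0.0904, so the call needed both A1 arrays, while the difference stayed between -2.89 and -2.54 in all 18 alternatives. The measured neighbours of Gm6958, namely Nfkbiz, Nxpe3, Cep97, Zbtb11, Zbtb11os1, Pcnp and Trmt10c, differed by -0.08 to 0.07 log2, and their A1 and A4 arrays overlapped.

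Over all members the clones were close. The differences had a median of 0.01 and an SD of 0.15 log2, and for 99.7% of genes the 95% interval of the difference excluded a change of 1 log2 in either direction. An exact permutation test of 2 arrays against 2 cannot go below p = 0.333, so single genes were read from the fit across all probe sets and from whether the arrays overlapped. An unadjusted p under 0.05 was reached by 382 genes higher in A1 (2.19%) and by 382 higher in A4 (2.19%). Both A1 arrays were above both A4 arrays for 3405 genes (19.6%), and both were below for 2522 (14.5%). With array medians subtracted, 63.2% of the probe sets at an unadjusted p under 0.05 were higher in A1 in place of 49.9%. A difference of at least 0.5 log2 was seen for 117 genes, of which 53 had both A1 arrays on top, 63 had both A4 arrays on top and 1 overlapped. After Gm6958 the smallest adjusted p was 0.232, so the genes below are described by their values and by these shares, and none of them passed the test.

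**Figure D1:**
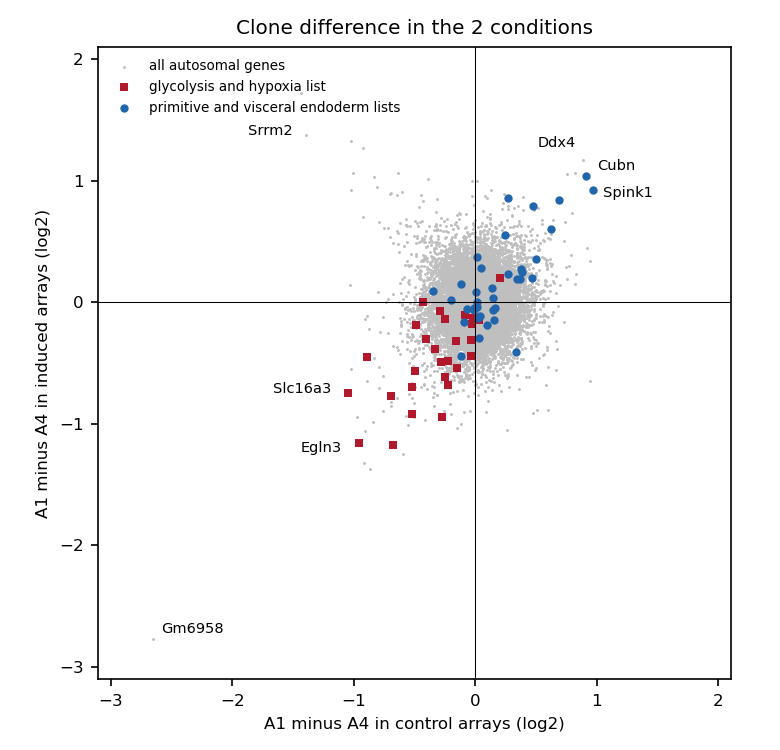
Each point is 1 of 17404 autosomal genes, with the A1 minus A4 difference in the control arrays on the horizontal axis and in the induced arrays on the vertical axis (both log2, 1 array a clone and condition). Gm6958 lies alone at the lower left, 27 of 28 genes of the glycolysis and hypoxia list (red squares) have a mean difference below 0, and Ddx4, Cubn and Spink1 lie at the upper right. Srrm2 is 1 of 5 genes that lie past 1 log2 in opposite directions.

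Genes of glycolysis and the hypoxia response were lower in A1. Of 28 measured list members, 27 had a difference below 0, 14 reached an unadjusted p under 0.05, all with the higher signal in A4 (against 2.19% of all genes), and 21 had both A4 arrays above both A1 arrays (75.0%, against 14.5% of all genes). The median difference was -0.35 log2, beside 0.01 over all genes. It was -0.28 in the control arrays and -0.44 in the induced arrays, where 26 and 27 of the 28 were lower in A1. In the cross pairs it was -0.52 for A1 control minus A4 induced (26 of 28 lower) and -0.20 for A1 induced minus A4 control (22 of 28 lower). The mean signal of the list was 9.58 in the control array and 9.71 in the induced array of A1, and 9.92 and 10.17 in A4. No member passed the test, and the smallest adjusted p of the list was 0.429.

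Oxygen sensors and known targets of Hif1a were among the members with the largest differences. Egln3, a prolyl hydroxylase, read 7.27 and 7.76 log2 in the control and induced arrays of A1, against 8.23 and 8.92 in A4. Both A1 arrays were below both A4 arrays, and the difference was -1.06 ± 0.17 log2 (SE; adjusted p = 0.549 in limma). A second probe set of Egln3 differed by -0.86. Egln1, the main oxygen sensor of most cells, read 7.60 and 7.98 in A1 against 8.50 and 8.43 in A4, a difference of -0.67. Bnip3, which recruits mitochondria for degradation, was a bright member at 10.17 and 10.52 in A1 against 10.87 and 11.29 in A4, and its arrays did not overlap either (-0.73). Ankrd37, a small ankyrin repeat protein, differed by -0.72, and Ddit4, an inhibitor of the growth kinase complex mTORC1, by -0.53.

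Transporters and enzymes of glycolysis were mostly on the same side, by unequal amounts. Slc16a3, which exports lactate, read 8.18 and 8.49 log2 in A1 against 9.23 and 9.24 in A4. It had the smallest p of the list, with a difference of -0.90 ± 0.14 log2 (SE; adjusted p = 0.429 in limma). Aldoc, an aldolase, read 7.84 and 8.05 in A1 against 8.52 and 9.23 in A4, a difference of -0.92. A second, dim Aldoc probe set near 3.3 log2 did not separate the clones (0.06). The phosphofructokinase subunits Pfkl (-0.61) and Pfkp (-0.43), the regulator Pfkfb3 (-0.61), hexokinase Hk1 (-0.45) and the glucose transporter Slc2a3 (-0.39) all had non-overlapping arrays. Several abundant enzymes differed less, with -0.19 for Aldoa, -0.18 for Pkm, -0.10 for Ldha and -0.06 for Pgam1. Car9, one of the best known hypoxia targets, was dim at 5.41 to 5.56 log2 in all 4 arrays and did not separate them. Kdm3a, a histone demethylase, was the member with the higher signal in A1 (0.20).

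**Figure D2:**
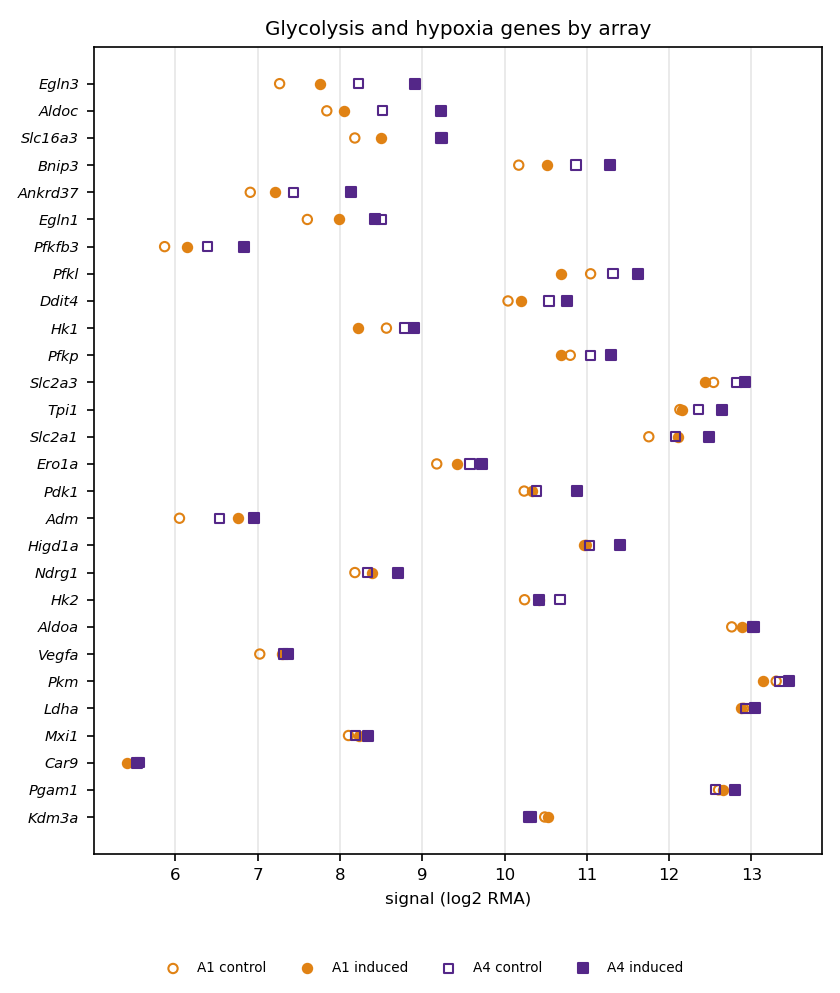
Signal (log2 RMA) of the 28 measured genes of the glycolysis and hypoxia list in each of the 4 arrays, ordered by difference. Orange circles are A1, purple squares are A4, open symbols are control and filled symbols are induced arrays. From Egln3 down to Tpi1 every A4 array lies to the right of both A1 arrays. This holds for 21 of the 28 genes, while Kdm3a is reversed and the rest, among them Adm, Car9, Mxi1 and Pgam1, overlap.

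The promoters of 3 of these genes are shown because they carry the core letters of the hypoxia element. Each line gives the 250 bases before the RefSeq start on the gene's strand (GRCm38.p6), 5′ to 3′, with every ACGTG, on either strand, in capitals. Where it lies within CACGTG, which reads as ACGTG on both strands, those 6 letters are in capitals.
Bnip3 (chr7:138909507-138909756, minus strand): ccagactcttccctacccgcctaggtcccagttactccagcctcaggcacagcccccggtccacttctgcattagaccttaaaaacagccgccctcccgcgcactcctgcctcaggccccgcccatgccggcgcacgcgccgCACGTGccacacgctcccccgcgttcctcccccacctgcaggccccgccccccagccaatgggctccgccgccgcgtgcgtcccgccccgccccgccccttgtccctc
Egln3 (chr12:54203875-54204124, minus strand): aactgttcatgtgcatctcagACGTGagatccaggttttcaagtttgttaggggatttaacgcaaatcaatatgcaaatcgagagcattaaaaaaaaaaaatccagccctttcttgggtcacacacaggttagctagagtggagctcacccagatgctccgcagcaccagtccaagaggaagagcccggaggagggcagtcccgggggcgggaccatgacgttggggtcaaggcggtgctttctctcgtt
Slc16a3 (chr11:120948817-120949066, plus strand): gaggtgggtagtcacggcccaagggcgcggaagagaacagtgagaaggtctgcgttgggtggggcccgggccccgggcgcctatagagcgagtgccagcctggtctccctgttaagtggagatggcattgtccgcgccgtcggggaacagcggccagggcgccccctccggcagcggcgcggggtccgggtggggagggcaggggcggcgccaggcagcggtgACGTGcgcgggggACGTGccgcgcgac
Bnip3 and Egln3 hold 1 match and Slc16a3 holds 2. Over all 32851 RefSeq windows of this length, 16.6% held ACGTG, against 20 of the 39 windows of the list (51.3%). Of the 26 members with a window, 17 held a match in at least 1, and no such count by gene was made over all genes. These shares come from the choice of the list and do not depend on the clones. The window of Gm6958, which is not in the list, also held 1 match. Aldoc had no ACGTG in its 2 windows, and for cholesterol synthesis 4 of 17 windows (23.5%) held it. Only ACGTG was searched for, so a window without a match may hold another form of the element. A match is a description of the letters, and binding was not measured.

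Several genes outside the list that are known to respond to low oxygen were chosen after their values were seen. Ndufa4l2, a mitochondrial protein that lowers respiration, read 7.66 and 7.86 log2 in A1 against 8.58 and 9.18 in A4, a difference of -1.12 and a signal 2.17-fold higher in A4 (adjusted p = 0.250 in limma). Ccng2 (-0.98), Bhlhe40 (-0.96), the adenylate kinase Ak4 (-0.68) and Pgm1 (-0.69) also had both A4 arrays on top. Of the 5 Ak4 probe sets 4 had the same direction. With eBayes trend and robust options Ndufa4l2 had an adjusted p of 0.0422, and over 18 alternatives this p ran from 0.0422 to 0.999888.

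Cholesterol synthesis genes also lay low in A1. Of 18 measured members, 17 had a difference below 0, 13 had both A4 arrays above both A1 arrays (72.2%, against 14.5% of all genes) and 3 reached an unadjusted p under 0.05 on the A4 side (16.7%, against 2.19%), with a median of -0.21 log2. The median was -0.22 in the control arrays (17 of 18 lower in A1) and -0.22 in the induced arrays (13 of 18 lower). In the cross pairs it was -0.26 for A1 control minus A4 induced (18 of 18 lower) and -0.16 for A1 induced minus A4 control (16 of 18 lower). Insig1, which holds the sterol sensor in the endoplasmic reticulum, read 8.20 and 8.41 log2 in A1 against 8.69 and 8.84 in A4 (difference -0.46). Msmo1, a demethylase of the pathway, read 9.32 and 9.51 against 9.71 and 9.84 (-0.36). Both genes kept their arrays apart. Cyp51 differed by -0.31, Dhcr7 by -0.26 and Sqle by -0.23, all with both A4 arrays on top. No member passed the test (every adjusted p was 1).

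Some genes of the extraembryonic endoderm had the higher signal in A1. Over 4 lists for endoderm regulators, visceral endoderm, parietal endoderm and basement membrane, which hold 70 distinct measured genes, 18 reached an unadjusted p under 0.05 with the higher signal in A1 (25.7%, against 2.19% of all genes) and 4 with the higher signal in A4 (5.71%, against 2.19%). Both A1 arrays were above for 27 of the 70 (38.6%, against 19.6%) and both A4 arrays for 12 (17.1%, against 14.5%). The median over the 70 genes was 0.02 log2, and no member passed the test. In cultures measured in bulk, more cells of a type and more RNA in each cell cannot be told apart.

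Srgn, Cubn, Dab2 and Col4a2 were set as the endoderm markers of this pair of clones with earlier results of these data known, so their values are a description and not independent evidence of a direction. They are among the 70 genes, and without them 14 of 66 reached an unadjusted p under 0.05 on the A1 side (21.2%). Srgn, a secretory proteoglycan, read 8.23 and 8.44 log2 in A1 against 7.47 and 7.38 in A4 (0.91 ± 0.12, SE; adjusted p = 0.276 in limma). Dab2, the adaptor for receptor uptake, read 7.13 and 7.47 against 6.44 and 6.62 (0.77). In both genes the lower A1 array was above the higher A4 array, and the 4 Dab2 probe sets all had this direction. Cubn, the receptor for vitamin B12 with intrinsic factor, read 6.68 and 6.79 against 5.76 and 5.75 (0.98 ± 0.25, SE). Col4a2, a chain of basement membrane collagen, read 7.51 and 7.26 against 6.72 and 6.87 (0.59).

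Around these markers, 8 of the 10 measured regulators of primitive endoderm had a difference above 0, and 6 had both A1 arrays on top (60.0%, against 19.6% of all genes). Pdgfra, the receptor that marks primitive endoderm, read 5.22 and 5.08 log2 in A1 against 4.59 and 4.48 in A4 (0.61), with another Pdgfra probe set at -0.14. Sox7 read 5.80 and 6.26 against 5.53 and 5.41 (0.56), Sox17 differed by 0.33 and Gata6 by 0.28, with another Gata6 probe set at -0.05. These 4 transcripts stayed between 4.48 and 6.26 log2 in all 4 arrays. Gata4 (-0.04), Hnf4a (-0.05) and Prdm1 (0.00) overlapped between the clones. The median of the list was 0.14 log2, at 0.21 in the control and 0.15 in the induced arrays. In the cross pairs it was 0.22 for A1 control minus A4 induced and 0.11 for A1 induced minus A4 control.

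Of 27 uptake and secretion genes of visceral endoderm, 7 had an unadjusted p under 0.05 in limma and the higher signal in A1. That is 25.9%, against 2.19% of all genes, and 0 had it on the A4 side (also against 2.19%). Among the 7 are Cubn and Dab2, which were set as markers with earlier results of these data known. The median of the list was 0.04 log2. Spink1, a secreted trypsin inhibitor, read 8.36 and 8.50 log2 in A1 against 7.40 and 7.58 in A4 (0.94 ± 0.12, SE; adjusted p = 0.232 in limma, and 0.0412 to 0.999888 over 18 alternatives, the lowest with eBayes trend and robust options). Amn, which anchors Cubn in the membrane, read 6.82 and 6.99 against 6.34 and 6.20 (0.63). The third uptake receptor, Lrp2, differed by 0.40 with non-overlapping arrays at its brightest probe set, but its 3 probe sets ran from -0.29 to 0.40 and none reached an unadjusted p under 0.05. Apom, which carries lipid in lipoproteins, differed by 0.43, the folate receptor Folr1 by 0.33 and the Wnt inhibitor Dkk1 by 0.32. On the other side, 11 of the 27 had a difference below 0. Both A4 arrays were on top for 3 (11.1%, against 14.5% of all genes), namely Mttp (-0.28), Habp2 (-0.13) and Aqp8 (-0.06). Both A1 arrays were on top for 10 (37%, against 19.6%). The secreted proteins best known from visceral endoderm overlapped between the clones, with 0.04 for Ttr, -0.04 for Afp and -0.01 for Apoa1. Of the 27 genes 11 had a mean signal below 5 log2.

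Basement membrane genes differed in both directions. The collagen and laminin chains Col4a2 (0.59), Col4a1 (0.36), Lamb1 (0.31) and Lama1 (0.28) had both A1 arrays on top. Another Lamb1 probe set differed by -0.14. The proteoglycan Hspg2 (-0.41) and the collagen-modifying enzymes P4ha1 (-0.41) and Plod2 (-0.38) had both A4 arrays on top. P4ha1 and Plod2 are also known hypoxia targets. Over the 21 members, 4 reached an unadjusted p under 0.05 on the A1 side, among them the marker Col4a2, and 3 on the A4 side. Together they are 33.3% of the list, against 4.39% of all genes, and the median was -0.05 log2. Both A1 arrays were on top for 6 (28.6%, against 19.6% of all genes) and both A4 arrays for 7 (33.3%, against 14.5%). Of the 13 parietal endoderm markers, Srgn, Fst (0.32) and Thbd (0.28) were higher in A1 at an unadjusted p under 0.05. Srgn had been set as a marker with earlier results of these data known. The keratin Krt19 was higher in A4 at that p, at 6.33 and 6.90 log2 against 5.99 and 6.05 (-0.60). These genes are 30.8% of the list, against 4.39% of all genes. The median of that list was 0.10 log2 over all 4 arrays but -0.01 in the induced arrays alone.

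**Figure D3:**
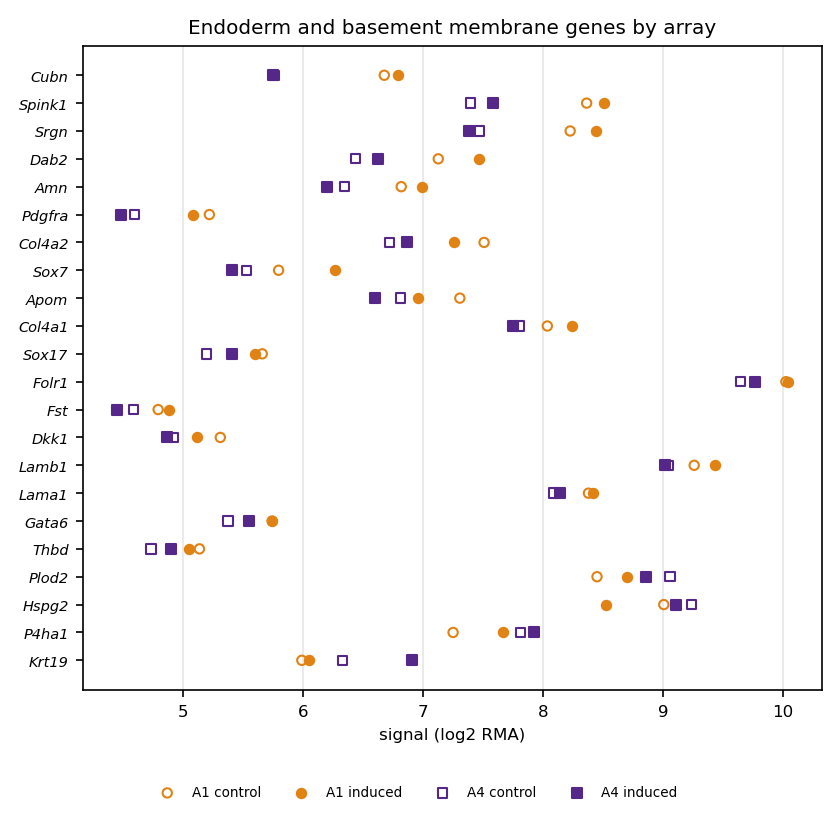
Signal (log2 RMA) in the 4 arrays of the 22 endoderm and basement membrane genes with an unadjusted p under 0.05, which is what placed them here. Orange circles are A1, purple squares are A4, open symbols are control and filled symbols are induced arrays. The upper 18 genes lie to the right in A1, and Plod2, Hspg2, P4ha1 and Krt19 lie to the right in A4.

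Pluripotency genes differed little. The 17 core factors had a median difference of 0.01 log2. Of the 18 naive factors 14 were lower in A1, with a median of -0.08, and 8 had both A4 arrays on top (44.4%, against 14.5% of all genes). Prdm14, a repressor of differentiation in naive cells, read 7.77 and 7.94 log2 in A1 against 8.09 and 8.22 in A4 (-0.30). The epiblast factor Otx2 was dimmer in A1, at 5.16 and 5.62 against 6.18 and 6.17 (-0.78). Of the Nodal pathway, the ligand Nodal (0.32) and its inhibitor Lefty1 (0.42) were higher in A1. Lefty2 (-0.36) and the inhibitory Smad7 (-0.39) were higher in A4, and the arrays of these Nodal pathway genes did not overlap. In their list of 17 genes both A1 arrays were on top for 17.6%, near the 19.6% of all genes. Both A4 arrays were on top for 23.5%, against 14.5%, and the median of that list was -0.03 log2. Of 17 genes of simple epithelia, with a median of -0.03, Krt19, Krt7 (-0.52) and the desmosome protein Dsp (-0.43) reached an unadjusted p under 0.05. All 3 had the higher signal in A4 (17.6%, against 2.19% of all genes). Both A4 arrays were on top for 3 of the 17 (17.6%, near the 14.5% of all genes) and both A1 arrays for 2 (11.8%, against 19.6%).

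Single genes of other lists had some of the larger differences. Ddx4, a helicase of germ cells, read 7.74 and 7.98 log2 in A1 against 6.85 and 6.80 in A4, a difference of 1.03 ± 0.13 log2 (SE; adjusted p = 0.232 in limma) and the largest in the A1 direction. The median of its list, 18 germline genes that DNA methylation keeps silent, was -0.04, and Stag3, a meiotic cohesin, had the opposite sign at 7.54 and 7.09 against 7.88 and 7.84 (-0.54). Of 30 imprinted genes, Mest, which is expressed from the paternal allele, read 10.65 and 10.47 in A1 against 9.92 and 9.97 in A4 (0.62). Cdkn1c, a growth inhibitor, differed by 0.36, and Igf2r, which clears the growth factor Igf2, by -0.35. Of the 30 imprinted genes 21 had a difference above 0, as Mest did, and the median was 0.09 log2. An unadjusted p under 0.05 was reached by 16.7% of them, against 4.39% of all genes. Of the immediate early genes, Ier3 was lower in A1 at 8.12 and 8.71 against 8.96 and 9.69 (-0.91). The growth regulator Myc was higher in A1 at 9.12 and 9.52 against 8.73 and 8.76 (0.58). The median of their list of 22 genes was -0.01 log2, and 18.2% reached an unadjusted p under 0.05, also against 4.39%.

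**Figure D4:**
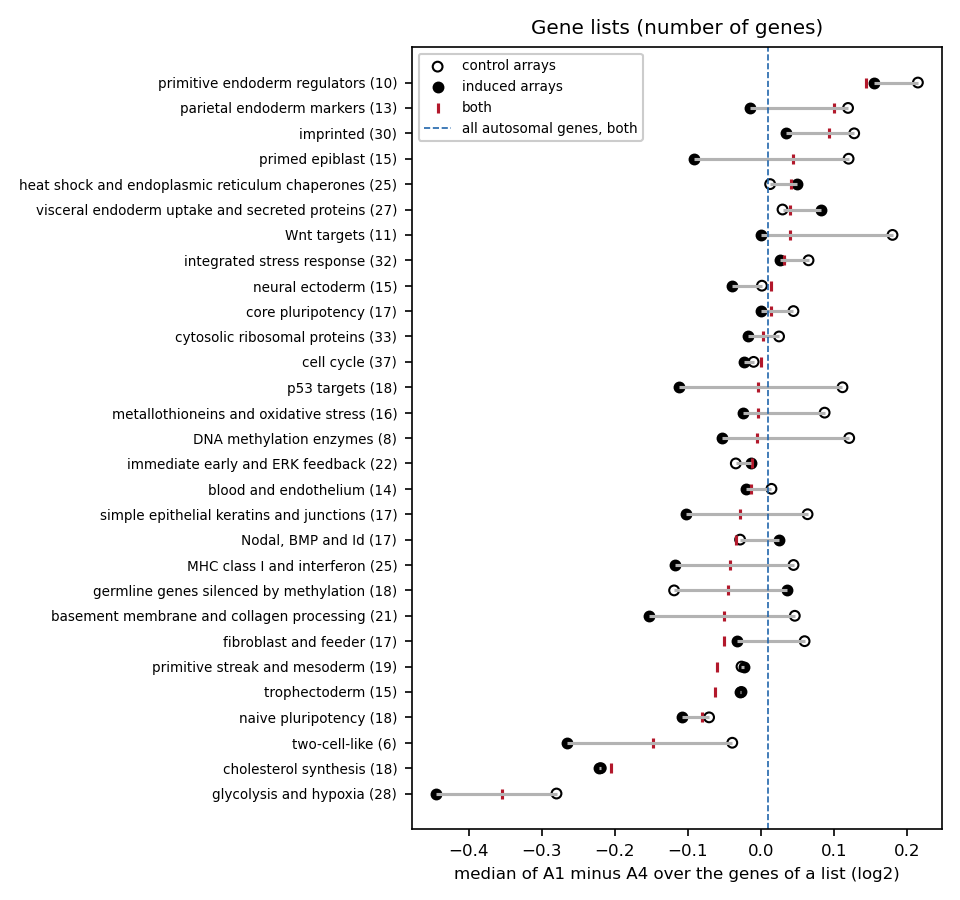
Median A1 minus A4 difference (log2) over the genes of each of 29 lists, with the number of measured genes in brackets, from the control arrays (open circles), the induced arrays (filled circles) and all 4 arrays (red bars), which need not lie between the circles because medians do not add. The dashed line is the median of all autosomal genes, 0.01. Glycolysis and hypoxia, at -0.35, and cholesterol synthesis, at -0.21, lie farthest to the left, and primitive endoderm regulators, at 0.14, farthest to the right.

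The remaining lists had medians between -0.15 and 0.09 log2, the lowest for 6 genes of two-cell-like cells, all 6 with a difference below 0 and 0 at an unadjusted p under 0.05. The median was 0.00 for 37 cell cycle genes, 0.00 for 33 cytosolic ribosomal proteins, 0.03 for 32 genes of the integrated stress response and 0.04 for 25 chaperones, and 0 cell cycle, ribosomal or chaperone genes reached an unadjusted p under 0.05. Mouse Eif4h itself read 12.25 and 12.53 log2 in A1 against 12.23 and 12.38 in A4 at its brightest probe set (0.09 ± 0.14, SE), and its 6 probe sets differed by 0.00 to 0.09. The inserted sequence is human, and whether these probe sets detect it was not analysed here. By chromosome, the 19 autosomal medians ran from -0.01 to 0.03 log2. In runs of 25 neighbouring expressed genes the median ran from -0.11 to 0.15 log2.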

How the data were processed

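RNA was hybridized to 6 Affymetrix whole-genome mouse arrays, of which 4 were compared. The deposited values are log2 signals that the authors computed by RMA with affy, a Bioconductor package (version not given in the sources used here), and they were used without another normalization. Groups, clones and replicate numbers were taken from the sample labels. Replicates 1, 2 and 3 are clones A1, A3 and A4. All 45101 probe sets were present; 64 Affymetrix controls were left out, and 45037 were tested. Platform annotation gave 1 symbol for 34945 of them, several for 932 and none for 9160. Genes of X and Y (1147 probe sets) and those not placed on a chromosome (210) were left out, which left 33588 autosomal probe sets. A gene is represented by its probe set with the highest mean over the 4 arrays.

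The contrast of A1 and A4 was fitted by limma 3.58.1 (lmFit, eBayes; R 4.3.3), with clone and condition as terms on all 6 arrays, two-sided, and p-values of the 45037 probe sets were adjusted by Benjamini-Hochberg and called under 0.05. The spread rests on 2 residual and 5.75 prior degrees of freedom, and the median SE was 0.12 log2. Arrays are from separate clones, and the labels call them biological replicates; no repeat culture of a clone was analysed, so p-values cover the spread after clone and condition are removed. Precision is limited by how few arrays there are. The script was tested on simulated data. The study's methods name no test between clones.

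Named genes were those called, in each of 29 lists the 2 members of smallest p, Srgn, Cubn, Dab2, Col4a2 and Eif4h. The 10 genes with the smallest p on each side among those with non-overlapping arrays, and further list members and genes with large differences, were named after their values were seen. The clone pair, the lists and the tests were chosen with earlier results of these data known. Chromosomes and promoter windows are of RefSeq, GRCm38.p6. Figures were made in Python 3.11.15 (matplotlib 3.10.9). Alternatives were a fit without A3, no condition term, a mean of at least 5 log2, cyclic loess, a second quantile normalization, array medians subtracted, arrayWeights, the trend and robust options of eBayes, a single probe set a gene, adjustment over autosomal probe sets alone, an adjusted p of 0.1, an added difference of 1 log2, and each array left out. The 2 cross pairs of single arrays (A1 control with A4 induced, A1 induced with A4 control) and the counts without the 4 markers were added after seeing the data.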

Additional observations from a re-analysis of the deposited data

Results flagged for a closer look

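The 18S ribosomal RNA control probe sets, which no comparison uses, were 1.36 log2 higher in the A1 induced array than in the A1 control array. Both A4 arrays read 5.99 log2, and those of A3 read 6.61 (control) and 7.27 (induced). The part of this in any difference between the clones was not tested.

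For 5 genes, Sntb2, Malat1, Gatad2b, Ccser2 and Srrm2, A1 was at least 1 log2 below A4 in the control arrays and at least 1 log2 above it in the induced arrays, and no gene had the opposite pattern. Srrm2, a splicing scaffold of nuclear speckles, read 10.06 log2 in the A1 control array and 10.05 in the A4 induced array, against 11.43 in the A1 induced and 11.45 in the A4 control array. Malat1, a nuclear RNA that is retained in speckles, read 6.49 and 6.31 in the first pair of arrays and 8.03 and 7.92 in the other. The difference between conditions was not tested, since each clone has 1 array a condition. Averaged over conditions these genes differed by -0.01 to 0.15 log2 between the clones.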

How the results depend on the processing

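The call of Gm6958 at 2 probe sets held in most alternatives. With eBayes trend and robust options 6 probe sets were called, 1 higher in A1 and 5 higher in A4, for Gm6958, Ndufa4l2, Pttg1 (adjusted p = 0.0412 in limma, and up to 0.999938 over 18 alternatives) and Spink1. With 1 probe set for each gene the count was 1, as each gene is then counted once. Without single arrays it ranged from 0 to 2, and it was 0 without the A1 control or the A1 induced array, where A1 keeps a lone array, assumed to vary like the others, and fewer arrays enter the fit. With no condition term or without A3 it stayed at 2. Of 1425 probe sets at an unadjusted p under 0.05, 49.9% were higher in A1; without the A1 control array it was 57.6% of 2075, and without the A1 induced array 40.7% of 1037. With single arrays left out, the Eif4h difference ran from -0.0688 without the A1 induced array to 0.245 without the A1 control array, and it was -0.127 for A1 control minus A4 induced. With single arrays left out, that of Sp110, a gene of the two-cell-like list, ran from -0.367 without the A4 control array to 0.0108 without the A4 induced array. The cause was not tested for these 2 genes.

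List medians kept their sign in all 13 alternatives run for glycolysis and hypoxia (-0.52 to -0.20), cholesterol synthesis (-0.26 to -0.16) and naive pluripotency (-0.13 to -0.05). The same held for primitive endoderm regulators (0.06 to 0.23) and visceral endoderm (0.01 to 0.20). It was not particular to these lists. The sign also held in all 13 for imprinted genes (0.02 to 0.13) and two-cell-like genes (-0.29 to -0.04). Primitive streak and mesoderm (-0.11 to -0.01) and Wnt targets (0.0005 to 0.18) kept it too. The sign held in 12 of 13 for parietal endoderm markers, trophectoderm and the integrated stress response, and in 11 of 13 for basement membrane. No paired analysis was possible because the replicate number is the clone, which is the term compared, so a replicate block would remove it. Small differences are limited by the median 95% interval of 0.28 log2 to either side.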

Other observations

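Of the genes that differed by at least 0.5 log2 with non-overlapping arrays, 41 of the 53 higher in A1 and 49 of the 63 higher in A4 belonged to none of the lists, and those named here were chosen after their values were seen. A2m, a plasma protease inhibitor, read 5.97 and 6.10 log2 in A1 against 6.83 and 7.48 in A4 (-1.12, adjusted p = 0.276 in limma). Pttg1, the securin that guards chromosome separation, was bright and apart at 11.46 and 11.51 against 12.26 and 12.21 (-0.75), and its 3 probe sets had the same direction. Anxa1, a calcium-dependent membrane binder, read 7.29 and 7.42 in A1 against 6.66 and 6.74 in A4 (0.66), while its relative Anxa2 differed by -0.78. Slc9a3r2, a scaffold for membrane transporters, differed by -0.74, Nefl, a neurofilament chain, by 0.65, Kitl, the ligand of the receptor Kit, by 0.68, and Kit itself, which the blood and endothelium list holds, by -0.35. Of these genes none passed the test.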
